A study of Homo sapiens with 9 samples.

Results

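The common effect of 2 guide RNAs against the long noncoding RNA TRIDENT was measured in H1975, an established line from a human lung adenocarcinoma whose EGFR gene is mutated and active. The comparison took every library that carried a TRIDENT guide, 6 of the 9 libraries, as the mean of the 2 guide effects, and set it against the 3 libraries with a non-targeting guide. All cells carried the same repressor, dCas9-KRAB, under a promoter that doxycycline switches on, and all of them, the controls included, received 4 ug/ml doxycycline for 72 h and were grown in G418 and puromycin. The groups were the non-targeting guide (control), TRIDENT gRNA1 and TRIDENT gRNA2, with 3 libraries each. The titles name the same H1975 repressor line for all of them, which does not show that they differ in the guide alone. The labels do not say whether the repressor line is a clone or a pool and do not give the guide sequences. Nor do they tell whether replicates came from separate cultures; the p-values then reflect only how far these libraries spread, and that spread may be technical. A gene was taken to share the effect of both guides when it passed the pooled test, edgeR's quasi-likelihood test with a Benjamini-Hochberg adjusted p under 0.05 over all genes, and its fitted change had the same sign with each guide. Both guide effects are measured from the same 3 controls, so an error in the controls enters both.

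Catalytically dead Cas9 fused to a KRAB domain binds where its guide directs it and recruits TRIM28, a scaffold for histone methyltransferases and deacetylases, which silences the promoter it is brought to. A pair of guides that bind different sequences near the same promoter share the intended target, while each guide may also bind elsewhere. TRIDENT is a long noncoding RNA that the series title links to EGFR signalling, to phosphorylated TRIM28 and to DNA repair. EGFR is the receptor tyrosine kinase on which lung cancers with its activating mutations depend for growth signals.

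The 9 libraries held between 16918432 and 26466536 estimated reads, and MALAT1, a nuclear long noncoding RNA, was the most abundant gene in each. Levels are given as CPM, read counts scaled to a common library size. The markers of the labelled line were present: KRT7, KRT8, EPCAM, CDH1 and NKX2-1, which mark lung epithelium, were between 36.6 and 848 TPM, a level corrected for transcript length, in every library, their list of 8 summing to 2034 to 2141 TPM in the controls and 1992 to 2096 TPM in the guide libraries. NAPSA of the same list was low, at 1.43 to 3.11 TPM. HBB of red cells and COL3A1 of fibroblasts were at 0 in all 9 libraries, and CD3E of T cells and LUM of fibroblasts were at 0 in 8. Other fibroblast markers had reads in every library, COL1A1 at 7.8 to 9.69 TPM and DCN at 1.14 to 2.68 TPM. The 5 fibroblast markers summed to 10.45 to 11.46 TPM in the controls and 9.315 to 12.54 TPM in the guide libraries. The 5 blood markers summed to 2.25 to 2.68 TPM in the controls and 2.5 to 3.06 TPM in the guide libraries. Mitochondrially encoded genes took 5.37% to 5.68% of reads in the controls and 5.72% to 6.61% in the guide libraries, so those ranges did not overlap; the part of this share in the results was not tested. Fewer cells of a kind and less RNA per cell cannot be told apart in these bulk libraries.

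Of 19658 genes tested, 1851 passed the pooled test (9.42%), 855 higher and 996 lower, and 1803 of them had the same sign with each guide (9.17%). These were 838 genes that rose with both guides (4.26%) and 965 that fell (4.91%), where the wording means the pooled test and the shared sign, not a call with each guide alone. With correction for GC content and gene length, an alternative added after seeing the data, the same-sign split became 1703 higher and 1258 lower, so the balance of the directions depends on that setting. The counts also depended on single libraries: the genes that rose numbered 523, 551 and 466 without control library 1, 2 or 3, and those that fell 470, 447 and 367, with 605 without gRNA1 library 2 and 506 without gRNA2 library 2. Of the other settings, an offset for the average effective transcript length of each gene in each library gave 281 and 240, and a fit that takes the 6 guide libraries as 1 group, so that the difference between guides counts as spread, gave 421 and 272. The rises were larger than the falls. The median fold was 1.25 among the genes that rose and 0.884 among those that fell, and a change of 1.5-fold or more was reached by 184 genes that rose and 15 that fell. At 2-fold the counts were 58 and 7. In 1374 of the 1803 genes all 6 guide libraries lay on 1 side of all 3 controls. Over all genes tested, these included, the share was 11.8%. Since the 1803 were chosen on these same libraries, their separation is a description and not separate evidence.

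The genes that fell were abundant and nearly all protein-coding, 943 of 965, while the genes that rose included 207 long noncoding RNAs among 838. Long noncoding RNAs were 19.9% of all genes tested. At an average log2 CPM between 5 and 7, 48.4% of 95 long noncoding RNAs rose, against 4.17% of 4393 protein-coding genes at the same level. Among protein-coding genes the share that fell grew with the level, from 1.2% at a log2 CPM of 1 to 3 to 9.86% at 5 to 7 and 20.1% above 7. The median GC content of the transcripts was 44.8% for the genes that rose, 49.9% for those that fell and 48.3% for all genes. Since most members of the gene groups described here are abundant protein-coding genes, their counts are to be read against those shares as well as against the shares of all genes.

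**Figure D1:**
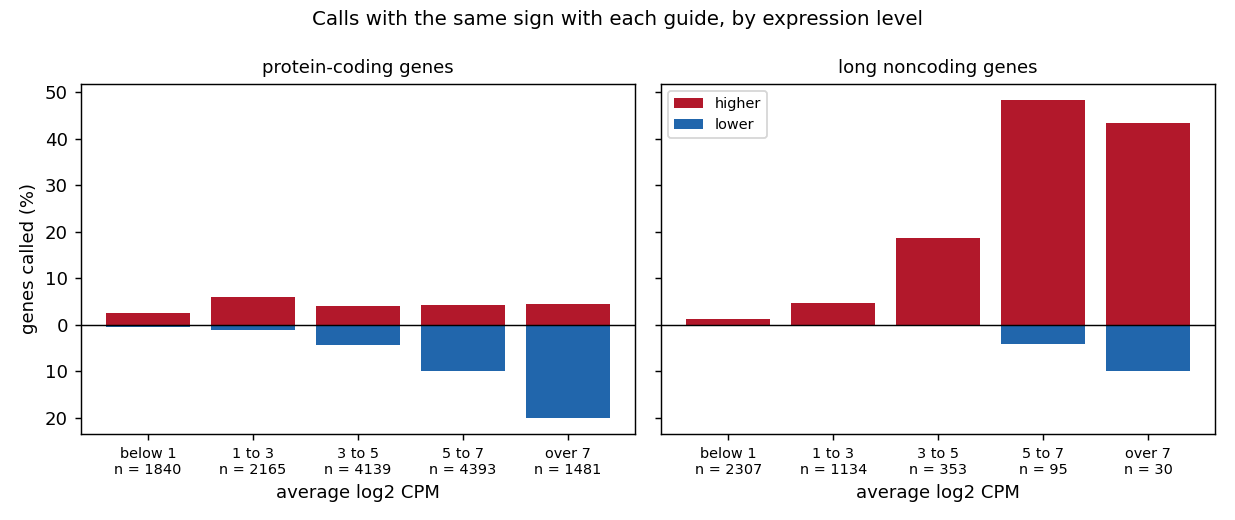
Share of protein-coding genes (left) and long noncoding genes (right) that rose (above 0) or fell (below 0) with the same sign with each guide, in bins of average log2 CPM, with the number of genes tested in each bin. Falls are concentrated in abundant protein-coding genes, reaching 20.1% above a log2 CPM of 7, and rises in abundant long noncoding RNAs, reaching 48.4% between 5 and 7.

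The target was read from the gene that RefSeq lists as TRIDDENT, with TRIDENT as a synonym, on the minus strand at chr16:3931217-3950586 (GENCODE 29, GRCh38). It had 2.62, 2.28 and 2.85 CPM in the controls, 1.77, 2.09 and 1.87 CPM with gRNA1 and 2.52, 2.29 and 2.52 CPM with gRNA2, from 36 to 62 reads a library. The gRNA1 libraries were all below the controls, while the gRNA2 libraries lay within the controls' range. The pooled level was 0.839-fold the control (95% interval 0.684 to 1.03, adjusted p = 0.289), which did not pass the test, and it was 0.745-fold with gRNA1 and 0.945-fold with gRNA2 (adjusted p = 0.133 and 0.818). The pooled test thus did not detect a fall of the target, and its interval allows a level as low as 0.684-fold. Directions below are of the libraries labelled with the TRIDENT guides.

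The start of the intended target and of 4 genes that lead groups described here are printed for their sequence. Each runs from 250 bases before to 50 after the RefSeq start (GRCh38.p14), 5′ to 3′ along the gene. Capitals mark any match, on either strand, to the letters of 10 elements. The cyclic AMP response element is TGACGTCA, the element of AP-1 is TGANTCA, and the element that ATF4 binds with C/EBP factors is TGATGNAA. The element of ETS factors is CCGGAAGT, and that of TEAD factors is GGAATGT. The core of the hypoxia response element is NACGTGC, which can overlap an E-box, CACGTG. The sterol regulatory element is TCACNCCAC, the element bound by NF-Y is CCAATC, and the box bound by the TATA-binding protein is TATAAA. TRIDDENT, chr16:3950395-3950694, strand -, holds AP-1 letters. RELN, chr7:103989609-103989908, strand -, holds an E-box. VCAN, chr5:83471494-83471793, strand +, holds none. LDHA, chr11:18394313-18394612, strand +, holds a cyclic AMP response element, 2 E-boxes and 2 hypoxia response elements. CCN2, chr6:131951323-131951622, strand -, holds a TEAD motif and a TATA box.
TRIDDENT: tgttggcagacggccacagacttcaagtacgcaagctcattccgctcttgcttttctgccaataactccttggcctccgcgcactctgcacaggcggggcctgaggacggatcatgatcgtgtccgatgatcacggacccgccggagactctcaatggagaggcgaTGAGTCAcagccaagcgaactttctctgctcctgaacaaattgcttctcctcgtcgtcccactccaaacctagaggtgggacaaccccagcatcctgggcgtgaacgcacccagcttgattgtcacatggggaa
RELN: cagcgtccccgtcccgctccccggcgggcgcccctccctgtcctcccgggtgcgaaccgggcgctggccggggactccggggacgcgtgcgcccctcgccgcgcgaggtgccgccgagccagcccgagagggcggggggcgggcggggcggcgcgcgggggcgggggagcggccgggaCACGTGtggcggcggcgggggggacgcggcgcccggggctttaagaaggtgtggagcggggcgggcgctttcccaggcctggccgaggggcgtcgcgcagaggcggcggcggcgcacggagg
VCAN: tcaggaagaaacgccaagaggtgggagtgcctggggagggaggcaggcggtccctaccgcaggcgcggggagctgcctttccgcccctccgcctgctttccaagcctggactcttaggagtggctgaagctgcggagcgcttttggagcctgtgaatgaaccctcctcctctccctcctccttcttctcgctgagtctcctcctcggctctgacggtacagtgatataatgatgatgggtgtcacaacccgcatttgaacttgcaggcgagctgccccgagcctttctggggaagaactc
LDHA: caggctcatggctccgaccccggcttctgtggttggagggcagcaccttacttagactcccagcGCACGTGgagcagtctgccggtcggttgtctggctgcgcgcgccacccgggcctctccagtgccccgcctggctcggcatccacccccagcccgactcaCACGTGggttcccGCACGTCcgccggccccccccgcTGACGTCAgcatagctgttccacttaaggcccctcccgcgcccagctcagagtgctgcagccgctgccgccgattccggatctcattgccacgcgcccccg
CCN2: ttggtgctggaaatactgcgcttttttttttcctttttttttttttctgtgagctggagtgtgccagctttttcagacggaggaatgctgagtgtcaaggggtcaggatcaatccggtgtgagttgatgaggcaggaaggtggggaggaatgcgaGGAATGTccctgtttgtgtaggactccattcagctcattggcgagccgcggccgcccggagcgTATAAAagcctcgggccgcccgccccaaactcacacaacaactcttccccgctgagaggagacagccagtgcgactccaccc

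Among RefSeq promoters matched to the genes, 537 belonged to genes that rose, 781 to genes that fell and 12320 to all genes tested, and 27305 were in the whole table. AP-1 letters were in 8.19% of the promoters of genes that rose, 4.23% of those that fell and 5.08% of those tested, and in 7.76% of the table. A TATA box was in 13%, 7.81%, 6.48% and 12% in the same order. ETS letters were in 3.17%, 8.19%, 8% and 4.44%, and NF-Y letters in 16%, 23.2%, 19.2% and 15.7%. E-boxes were in 6.15%, 9.48%, 9.59% and 7.43%. Hypoxia response elements were in 6.89%, 8.96%, 8.29% and 6.84%, TEAD letters in 2.79%, 3.07%, 2.17% and 3.48%, and the cyclic AMP response element in 2.05%, 3.07%, 3.1% and 1.98%. The C/EBP-ATF element was in 2.05%, 1.79%, 1.85% and 3.67%, and the sterol element in 0.745%, 1.54%, 1.06% and 1.15%. A match is a description of letters, not a site.

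TRIM28, the cofactor that KRAB domains recruit and that the series title names, fell. It had 447, 406 and 409 CPM in the controls, 379, 381 and 389 CPM with gRNA1 and 368, 334 and 317 CPM with gRNA2, all 6 guide libraries lying below all 3 controls. The pooled level was 0.858-fold the control (95% interval 0.808 to 0.912, adjusted p = 0.00283), with 0.911-fold with gRNA1 and 0.809-fold with gRNA2 (adjusted p = 0.105 and 0.000699), and the guides differed (adjusted p = 0.0417). The call ended with an offset for transcript length and with the 6 guide libraries taken as 1 group. EGFR had 539, 553 and 535 CPM in the controls, 502, 495 and 500 CPM with gRNA1 and 523, 529 and 539 CPM with gRNA2. All 3 gRNA1 libraries were below the controls and the gRNA2 libraries overlapped them, and the pooled level was 0.948-fold the control (95% interval 0.911 to 0.986, adjusted p = 0.0843), which did not pass. EGFR passed as lower once each chromosome's median change was removed and after correction for GC content and length, both added after seeing the data.

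The 12 genes with the highest rise in the weaker guide, among those separated from all controls, were led by RELN, which encodes reelin, a secreted glycoprotein of neuronal positioning that binds the receptors VLDLR and LRP8. RELN had 2.46, 2 and 2.99 CPM in the controls, 11.3, 13.1 and 12.5 CPM with gRNA1 and 8.62, 9.2 and 9.55 CPM with gRNA2. Every guide library was above 8 CPM and every control below 3, and the pooled level was 4.29-fold the control (95% interval 3.62 to 5.07, adjusted p = 1.42e-09). ENTREP1, a membrane protein of endosomes, had 6.58, 6.84 and 5.65 CPM in the controls, 15.4, 14.5 and 16.3 CPM with gRNA1 and 14, 15.8 and 15.8 CPM with gRNA2. Its 2 guide effects were nearly the same, 2.41-fold with gRNA1 and 2.38-fold with gRNA2, and the pooled level was 2.4-fold the control (95% interval 2.12 to 2.71, adjusted p = 1.51e-08). TSPAN12, a tetraspanin that takes part in Norrin signalling, had 1.77, 2.32 and 2.25 CPM in the controls, 8.33, 7.77 and 6.99 CPM with gRNA1 and 4.45, 4.16 and 4.5 CPM with gRNA2. The gRNA1 libraries stood above the gRNA2 libraries, which stood above the controls, and the pooled level was 2.71-fold the control (95% interval 2.26 to 3.25, adjusted p = 5.41e-07). BDKRB2, the bradykinin receptor B2, had 4.92, 4.28 and 4.18 CPM in the controls, 9.07, 8.92 and 9.11 CPM with gRNA1 and 10.1, 9.12 and 7.93 CPM with gRNA2. The 2 guide effects were nearly the same, and the pooled level was 2.04-fold the control (95% interval 1.77 to 2.36, adjusted p = 1.85e-06).

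SOX2, a transcription factor of stem cells and of squamous lung tumours, had 1.02, 0.692 and 1.01 CPM in the controls, 3.45, 3.37 and 4.09 CPM with gRNA1 and 1.86, 1.91 and 2.34 CPM with gRNA2. It rose from a low level, 17 to 22 reads in the controls, to 3-fold the control (95% interval 2.3 to 3.92, adjusted p = 1.81e-05), with 4.03-fold with gRNA1 and 2.24-fold with gRNA2. ABCA12, a lipid transporter of the epidermis, had 0.695, 0.937 and 0.828 CPM in the controls, 2.86, 4.01 and 3.74 CPM with gRNA1 and 2.02, 1.3 and 2.4 CPM with gRNA2. The guide libraries did not overlap the controls, and the pooled level was 3.09-fold the control (95% interval 2.25 to 4.25, adjusted p = 9.62e-05). MAOA, the monoamine oxidase that breaks down serotonin, rose to 2.68-fold (adjusted p = 7.54e-06), from 1.7 ± 0.0833 CPM in the controls (SD, n = 3) to 4.7 ± 1.43 CPM in the guide libraries (SD, n = 6). HAGLR, a long noncoding RNA beside the HOXD genes, rose to 2.88-fold (adjusted p = 6.01e-07), from 1.71 ± 0.155 CPM in the controls (SD, n = 3) to 4.99 ± 1.03 CPM in the guide libraries (SD, n = 6). IL24, a cytokine, rose to 2.3-fold (adjusted p = 0.000112), and PTPN13, a tyrosine phosphatase, to 2.5-fold (adjusted p = 0.000237). RP1, a microtubule protein of photoreceptors, rose to 2.73-fold (adjusted p = 9.62e-05). FAM230J, a long noncoding RNA, was at 2.26-fold (adjusted p = 0.000996), but 85% of its 31-base words also occur in transcripts of other genes, so its reads could belong to those. The calls of HAGLR, RP1, IL24 and PTPN13 ended with the transcript-length offset (adjusted p = 0.0641 to 0.223), while no single library, left out, ended any of these 12.

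**Figure D2:**
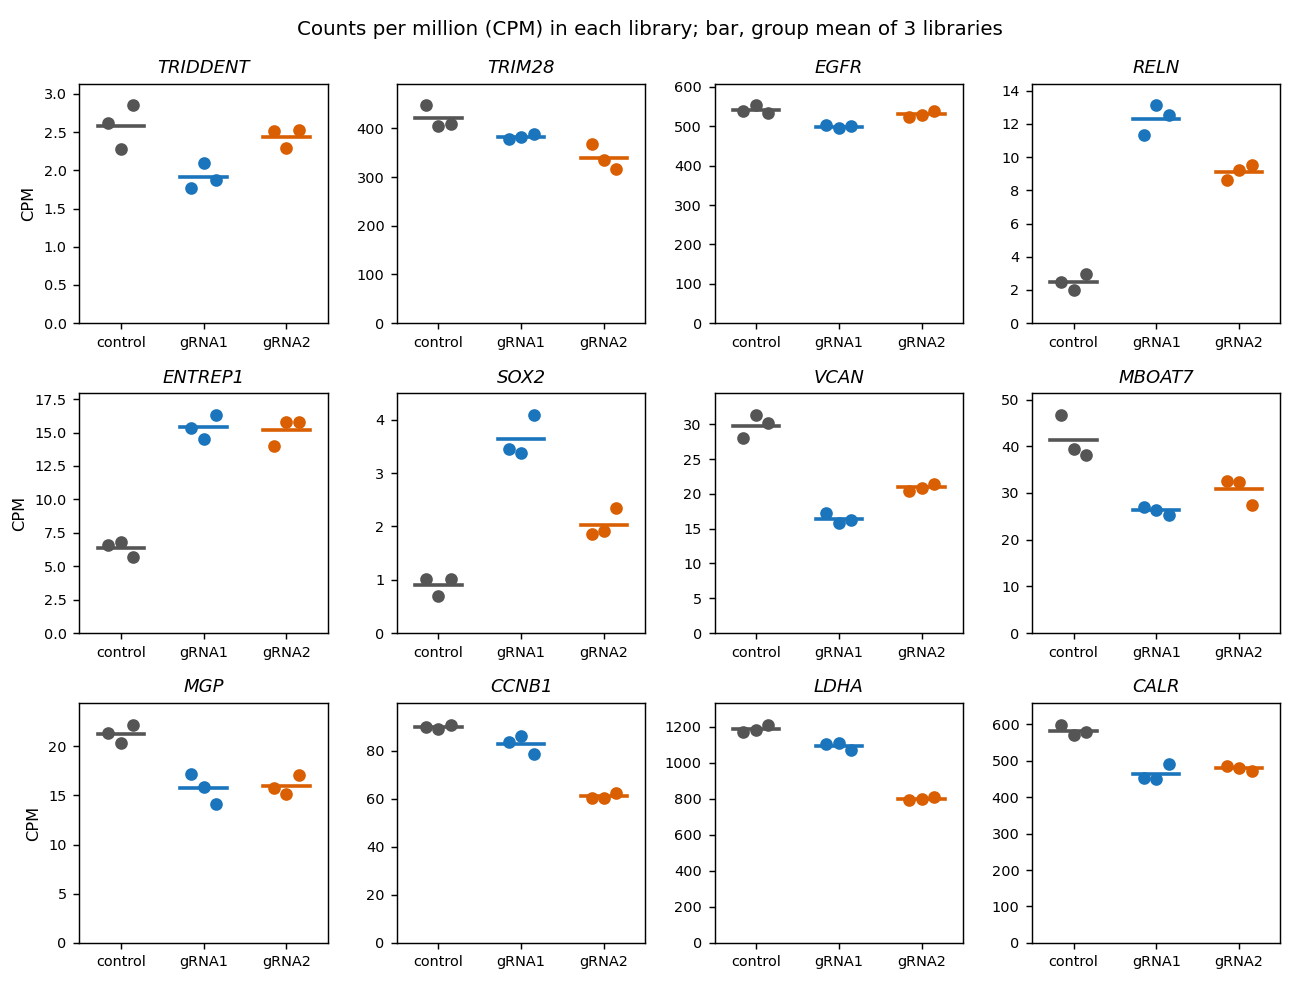
CPM of 12 genes in each library (points) with the mean of 3 libraries (bars), on axes that start at 0. RELN, ENTREP1 and SOX2 are higher and VCAN, MBOAT7, MGP, CCNB1, LDHA and CALR lower in all 6 guide libraries than in all 3 controls, while TRIDDENT and EGFR overlap.

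Among the 12 genes lowest by the weaker guide, at an average log2 CPM of 1 or more and with all guide libraries below all controls, VCAN had the lowest pooled fold. The 7 genes that fell 2-fold or more were below that level. VCAN encodes versican, a large proteoglycan of the extracellular matrix. It had 28, 31.3 and 30.2 CPM in the controls, 17.2, 15.9 and 16.2 CPM with gRNA1 and 20.5, 20.9 and 21.4 CPM with gRNA2. All guide libraries were below 22 CPM and all controls above 27, and the pooled level was 0.62-fold the control (95% interval 0.572 to 0.672, adjusted p = 1.7e-07). MBOAT7, which attaches arachidonic acid to phosphatidylinositol, had 46.7, 39.4 and 38.1 CPM in the controls, 27.1, 26.4 and 25.3 CPM with gRNA1 and 32.5, 32.4 and 27.5 CPM with gRNA2. Its guide libraries all lay below the controls, and the pooled level was 0.691-fold the control (95% interval 0.628 to 0.76, adjusted p = 5.25e-05). MGP, the matrix Gla protein that inhibits calcification, had 21.3, 20.3 and 22.2 CPM in the controls, 17.2, 15.9 and 14.2 CPM with gRNA1 and 15.8, 15.2 and 17.1 CPM with gRNA2. No guide library reached the controls, and the level fell to 0.745-fold the control (95% interval 0.676 to 0.821, adjusted p = 0.000422). PXDN, a peroxidase that crosslinks collagen IV, had 4.28, 3.95 and 4.64 CPM in the controls, 2.61, 2.31 and 2.07 CPM with gRNA1 and 3.09, 2.82 and 3.3 CPM with gRNA2. Its levels were low and separated, and the pooled level was 0.623-fold the control (95% interval 0.522 to 0.743, adjusted p = 0.00127).

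Further genes of this rule fell by smaller amounts: EPDR1, a lysosomal protein, to 0.716-fold (adjusted p = 0.00123); TIMP4, an inhibitor of metalloproteinases, to 0.691-fold (adjusted p = 0.0139); DIO2, which activates thyroid hormone, to 0.731-fold (adjusted p = 0.0115); FOSB, a subunit of AP-1, to 0.639-fold (adjusted p = 0.0131). AJM1, a protein of apical junctions, fell to 0.679-fold (adjusted p = 0.0131), LYPD6, a Wnt coreceptor, to 0.723-fold (adjusted p = 0.0189), and 2 transcribed pseudogenes, LSM12P1 and ANKRD19P, to 0.73-fold (adjusted p = 0.0128) and 0.718-fold (adjusted p = 0.034). All of the 31-base words of LSM12P1 (100%) and 42.9% of those of ANKRD19P occur in other genes' transcripts, so both are uncertain. In 7 of these 8 genes, EPDR1 being the exception, the call depended on single libraries. Without control library 1 it ended for DIO2, LSM12P1, AJM1, LYPD6 and ANKRD19P (adjusted p = 0.0698 to 0.15), without control 2 for DIO2, FOSB, LYPD6 and ANKRD19P (0.058 to 0.152), and without control 3 for LSM12P1, AJM1, TIMP4, LYPD6 and ANKRD19P (0.0543 to 0.0767). Without gRNA1 library 2 it ended for LYPD6 and ANKRD19P (0.0562 and 0.083), without gRNA2 library 2 for LYPD6 (0.0531) and without gRNA2 library 3 for ANKRD19P (0.0626). The transcript-length offset ended the calls of VCAN, EPDR1, DIO2, LSM12P1, FOSB, TIMP4 and LYPD6 (adjusted p = 0.0585 to 0.271), and DESeq2 did not call TIMP4, LYPD6 or ANKRD19P. ANKRD19P also lost its call with the 6 libraries as 1 group and with chromosome medians removed.

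**Figure D3:**
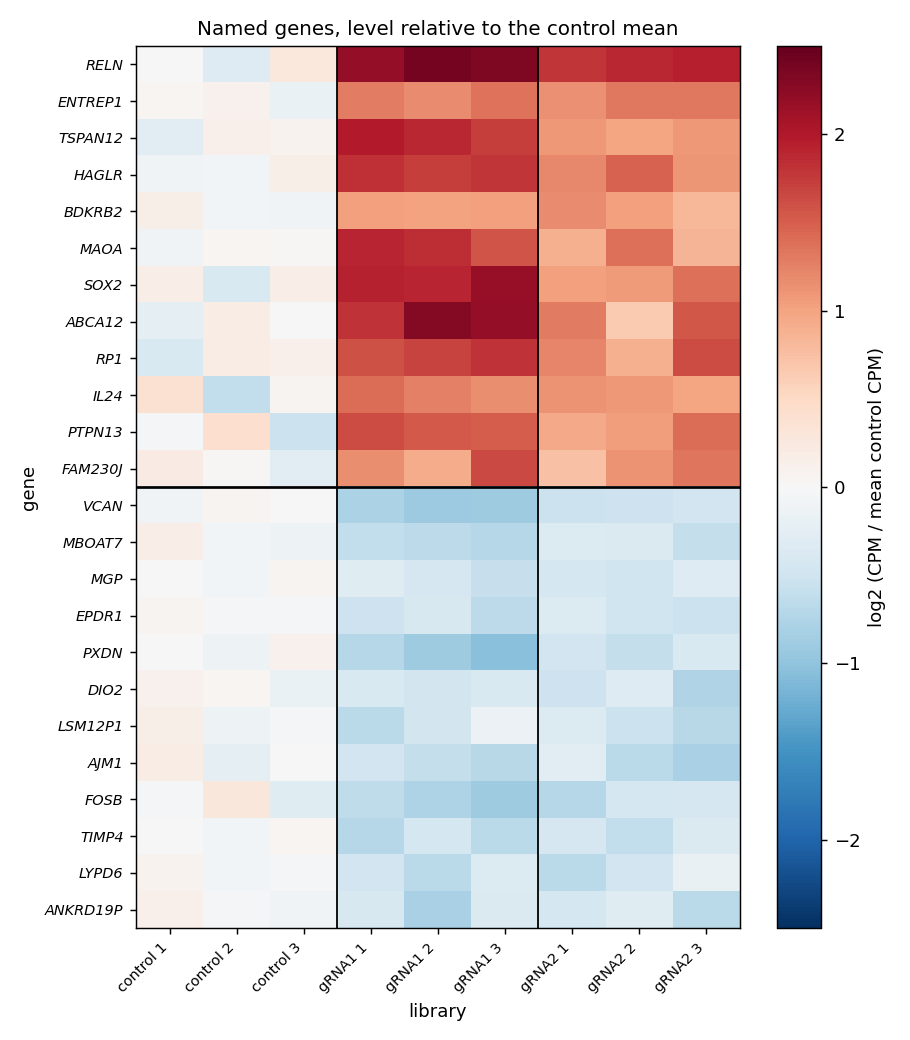
Level of the 12 genes highest and the 12 lowest by the weaker guide, as the log2 ratio of each library's CPM to the mean control CPM (colour scale, rows are genes, columns are libraries). The upper 12 rise in all 6 guide libraries, with most of them higher with gRNA1, and the lower 12 fall by smaller amounts, VCAN and PXDN the most.

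Many genes of G2 and mitosis fell. Of 42 measured, 29 fell in the pooled test with the same sign and 0 rose, against 4.91% and 4.26% of all genes. Tested against control by itself, gRNA1 gave 2 lower and 1 higher members and gRNA2 gave 36 lower and 0 higher. The median log2 change over the list was -0.19, with -0.05 for gRNA1 and -0.31 for gRNA2, and over all genes it was 0.00. The guides differed in 32 of the 42. CCNB1, the cyclin that drives entry into mitosis, had 89.9, 89.3 and 90.8 CPM in the controls, 83.8, 86 and 78.5 CPM with gRNA1 and 60.4, 60.4 and 62.4 CPM with gRNA2. The gRNA2 libraries were far below the others and the gRNA1 libraries just below the controls, and the pooled level was 0.79-fold the control (95% interval 0.748 to 0.834, adjusted p = 9.4e-06). FOXM1, a transcription factor of mitotic genes, fell to 0.814-fold (adjusted p = 0.000125), with 0.878-fold with gRNA1 and 0.753-fold with gRNA2. MKI67, the proliferation marker Ki-67, fell to 0.839-fold (adjusted p = 7.52e-05), with 0.964-fold with gRNA1 and 0.731-fold with gRNA2, and ANLN, a scaffold of the cleavage furrow, to 0.838-fold (adjusted p = 0.000144), with 0.96-fold with gRNA1 and 0.731-fold with gRNA2; in both, gRNA1 libraries overlapped the controls. The count of 29 was 14 without control library 3, 16 without control library 2, 19 without gRNA2 library 2, 3 with the 6 guide libraries as 1 group and 10 with the transcript-length offset.

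Genes of S phase gave 8 falls and 0 rises among 37 (21.6%, beside 4.91% of all genes that fell). The median was -0.11 (-0.01 for gRNA1 and -0.21 for gRNA2). Tested against control by itself, gRNA1 gave 1 lower and 0 higher members and gRNA2 gave 18 lower and 0 higher. RRM1, the large subunit of ribonucleotide reductase, had 85.5, 83.9 and 88.4 CPM in the controls, 74.9, 77.3 and 77.3 CPM with gRNA1 and 73.6, 71.8 and 74.5 CPM with gRNA2. All guide libraries were below the controls with either guide, and the pooled level was 0.871-fold the control (95% interval 0.827 to 0.918, adjusted p = 0.00141). Its partner subunit RRM2 fell to 0.869-fold (adjusted p = 0.00281), the replicative helicase subunit MCM2 to 0.871-fold (adjusted p = 0.00534), and UHRF1, which maintains DNA methylation at forks, to 0.865-fold (adjusted p = 0.00442). Among 58 replication-dependent histone genes 11 fell and 1, H2BC26, rose (20.7%, beside 9.17% of all genes). The guides differed in 42 of the 58. Tested against control by itself, gRNA1 gave 0 lower and 1 higher members and gRNA2 gave 41 lower and 1 higher. The median log2 change was 0.04 with gRNA1 and -0.47 with gRNA2. H1-4, a linker histone, fell to 0.864-fold (adjusted p = 0.00152), with 0.958-fold with gRNA1 and 0.78-fold with gRNA2. Histone genes took 0.0898% to 0.0962% of reads in the controls, 0.0953% to 0.0965% with gRNA1 and 0.071% to 0.0757% with gRNA2. The S phase count of 8 was 4 without control library 3, 5 without control library 1, control library 2 or gRNA1 library 2, 1 with the 6 guide libraries as 1 group and 3 with the transcript-length offset. The histone count of 11 was 3 without control library 1, 5 without gRNA2 library 2, 7 without control library 3, 0 with the 6 guide libraries as 1 group, 4 with the transcript-length offset and 7 in a fit of protein-coding genes alone. Among the genes named in these 2 groups and among mitotic genes, the transcript-length offset ended the calls of FOXM1, MKI67, ANLN, H1-4 and MCM2, and the fit of 1 group those of CCNB1, MKI67, ANLN, H1-4, RRM2, UHRF1 and MCM2.

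Glycolytic and hypoxia-inducible genes fell as well, 20 of 35, and 1, VEGFA, rose (60% called, beside 9.17% of all genes). The median log2 change over the list was -0.18, with -0.09 for gRNA1 and -0.27 for gRNA2. Tested against control by itself, gRNA1 gave 10 lower and 1 higher members and gRNA2 gave 20 lower and 2 higher. LDHA, the lactate dehydrogenase subunit induced by hypoxia, had 1173, 1184 and 1210 CPM in the controls, 1105, 1112 and 1069 CPM with gRNA1 and 791, 802 and 810 CPM with gRNA2. The guide libraries were all below the controls, and those with gRNA2 lay furthest below. Its pooled level was 0.788-fold the control (95% interval 0.758 to 0.819, adjusted p = 1e-07), with 0.921-fold with gRNA1 and 0.674-fold with gRNA2. NDRG1, a stress-responsive protein induced by hypoxia, fell to 0.749-fold (adjusted p = 6.5e-06), LDHB to 0.849-fold (adjusted p = 2.54e-05) and TPI1, the triosephosphate isomerase, to 0.836-fold (adjusted p = 3.93e-05). The count of 20 was 9 with the 6 guide libraries as 1 group and 13 with the transcript-length offset. The count stayed between 16 and 20 with any 1 library left out. LDHA and NDRG1 lost their calls with the 6 libraries as 1 group. NDRG1 and LDHB also lost theirs with the transcript-length offset.

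Few genes of the respiratory chain passed the test. Of 79 nuclear subunit genes 9 fell and 0 rose, with a median log2 change of -0.10. This was 11.4%, beside 9.86% and 20.1% of protein-coding genes at a log2 CPM of 5 to 7 and above 7. By itself against control, gRNA1 gave 2 lower and 2 higher of these subunit genes and gRNA2 gave 22 lower and 0 higher. UQCRC1, a core subunit of complex III, fell to 0.861-fold (adjusted p = 0.00171), and NDUFC2, an accessory subunit of complex I, to 0.848-fold (adjusted p = 0.00361). Of the 13 mitochondrially encoded protein genes 2 rose and 0 fell (15.4%, beside 4.26% of all genes that rose), and the median was 0.17. MT-CO3, a subunit of cytochrome oxidase, had 2658, 2729 and 2650 CPM in the controls, 3035, 3070 and 3349 CPM with gRNA1 and 3214, 3272 and 3370 CPM with gRNA2. Its lowest guide library was above its highest control, and the pooled level was 1.2-fold the control (95% interval 1.15 to 1.26, adjusted p = 2.45e-05), though 45% of its 31-base words occur in other genes' transcripts, among them nuclear copies. MT-CYB, the cytochrome b gene, shared 4.95% and rose to 1.24-fold the control (95% interval 1.17 to 1.3, adjusted p = 2.78e-05), with 1.25-fold with gRNA1 and 1.22-fold with gRNA2. The nuclear count of 9 was 1 without control library 3, 3 without control library 2, 4 without control library 1 or gRNA2 library 2, 5 without gRNA1 library 2, 15 without gRNA2 library 1, 2 with the 6 guide libraries as 1 group, 2 with the transcript-length offset, 3 in a fit of protein-coding genes alone, 14 with chromosome medians removed, 17 with GC and length correction and 20 with no filter on low counts. The mitochondrial count of 2 was 4 without gRNA1 library 1, 5 without gRNA1 library 3, 4 in a fit of protein-coding genes alone, 5 without the robust option, 6 in DESeq2, 6 with no filter on low counts and 6 with the replicate block. NDUFC2 lost its call without control 3 (adjusted p = 0.0509), and UQCRC1 with the transcript-length offset.

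Of 26 measured chaperones and stress genes of the endoplasmic reticulum 9 fell and 0 rose (34.6%, beside 4.91% of all genes that fell). The median was -0.12 (-0.14 for gRNA1 and -0.11 for gRNA2). CALR, calreticulin, which folds glycoproteins, had 598, 571 and 578 CPM in the controls, 453, 449 and 490 CPM with gRNA1 and 487, 481 and 473 CPM with gRNA2. No guide library reached the lowest control, and the pooled level was 0.81-fold the control (95% interval 0.774 to 0.849, adjusted p = 5.44e-06). HSPA5, the chaperone BiP, fell to 0.871-fold (adjusted p = 0.000157), HYOU1 to 0.839-fold (adjusted p = 0.000371), HSP90B1 to 0.873-fold (adjusted p = 0.00126) and PDIA3, a disulfide isomerase, to 0.888-fold (adjusted p = 0.00176). Of 16 heat shock genes 6 fell and 1 rose (43.75%, beside 9.17% of all genes). Set against control by itself, gRNA1 gave 0 lower and 1 higher members and gRNA2 gave 7 lower and 0 higher. HSPH1, HSPA8 and HSP90AB1, cytosolic chaperones, fell to 0.869-fold (adjusted p = 0.00161), 0.891-fold (adjusted p = 0.00177) and 0.908-fold (adjusted p = 0.00274), and the gRNA1 libraries overlapped the controls in HSPH1 and HSPA8. HSPA6, a strictly inducible member, rose to 1.64-fold (adjusted p = 0.0147), from 1.23 ± 0.145 CPM in the controls (SD, n = 3), with 56.7% of its words shared with other genes. The chaperone count of 9 was 4 with the transcript-length offset. The heat shock count of 6 was 3 without control library 2, control library 3, gRNA1 library 2 or gRNA2 library 2, 1 with the 6 guide libraries as 1 group, 3 in a fit of protein-coding genes alone and 3 with the transcript-length offset.

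Of 85 cytosolic ribosomal protein genes 23 fell and 0 rose, with a median of -0.07. This share, 27.1%, stood beside 20.1% for protein-coding genes above a log2 CPM of 7. Most of these falls were not called with gRNA1 by itself, which gave 1 lower and 1 higher members, while gRNA2 gave 28 lower and 0 higher. The medians were -0.04 and -0.10. RPSA, a protein of the small subunit, had 919, 889 and 909 CPM in the controls, 841, 835 and 805 CPM with gRNA1 and 782, 762 and 748 CPM with gRNA2. All guide libraries were below the controls, and the pooled level was 0.878-fold the control (95% interval 0.843 to 0.914, adjusted p = 0.000237). RPLP2, of the large subunit's stalk, fell to 0.899-fold (adjusted p = 0.00438). Of 78 mitochondrial ribosomal protein genes 9 fell (11.5%), among them MRPL17 at 0.843-fold (adjusted p = 0.00498) and MRPL21 at 0.87-fold (adjusted p = 0.00512). Of 34 proteasome subunits 8 fell and 0 rose (23.5%), with PSMD2 at 0.853-fold (adjusted p = 9.62e-05) and PSMD13 at 0.87-fold (adjusted p = 0.00126). Both shares are to be read beside 9.86% and 20.1% of protein-coding genes at a log2 CPM of 5 to 7 and above 7. By itself, gRNA1 gave 3 lower and 2 higher mitochondrial ribosomal genes and gRNA2 gave 13 lower and 0 higher. Proteasome falls numbered 3 with gRNA1 by itself and 11 with gRNA2. The cytosolic ribosomal count of 23 was 2 without control library 3, 3 without control library 1 or gRNA2 library 2, 8 without control library 2, 9 without gRNA1 library 2, 13 without gRNA1 library 1, 2 with the 6 guide libraries as 1 group, 3 in a fit of protein-coding genes alone, 4 with the transcript-length offset and 12 with chromosome medians removed. The mitochondrial ribosomal count of 9 was 1 without control library 3, 4 without gRNA1 library 2, 5 without control library 1, control library 2 or gRNA1 library 1, 0 with the transcript-length offset, 2 with the 6 guide libraries as 1 group and 5 in a fit of protein-coding genes alone. The proteasome count of 8 was 2 without control library 2 or control library 3, 4 without gRNA1 library 2 or gRNA2 library 2, 5 without control library 1, 1 with the transcript-length offset, 2 with the 6 guide libraries as 1 group and 4 in a fit of protein-coding genes alone. Without control 1 the calls of RPLP2 and HSPA6 ended (adjusted p = 0.0528 and 0.0755), and without control 3 those of MRPL21 and HSPA6 (0.0511 and 0.053). The transcript-length offset ended the calls of PSMD2, PSMD13, HSP90B1, PDIA3, MRPL17, MRPL21 and HSPA6, the fit of 1 group those of HSPH1, HSPA8 and HSPA6, and removing chromosome medians those of HSPA8 and RPLP2. RPLP2 was also not called after GC and length correction.

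**Figure D4:**
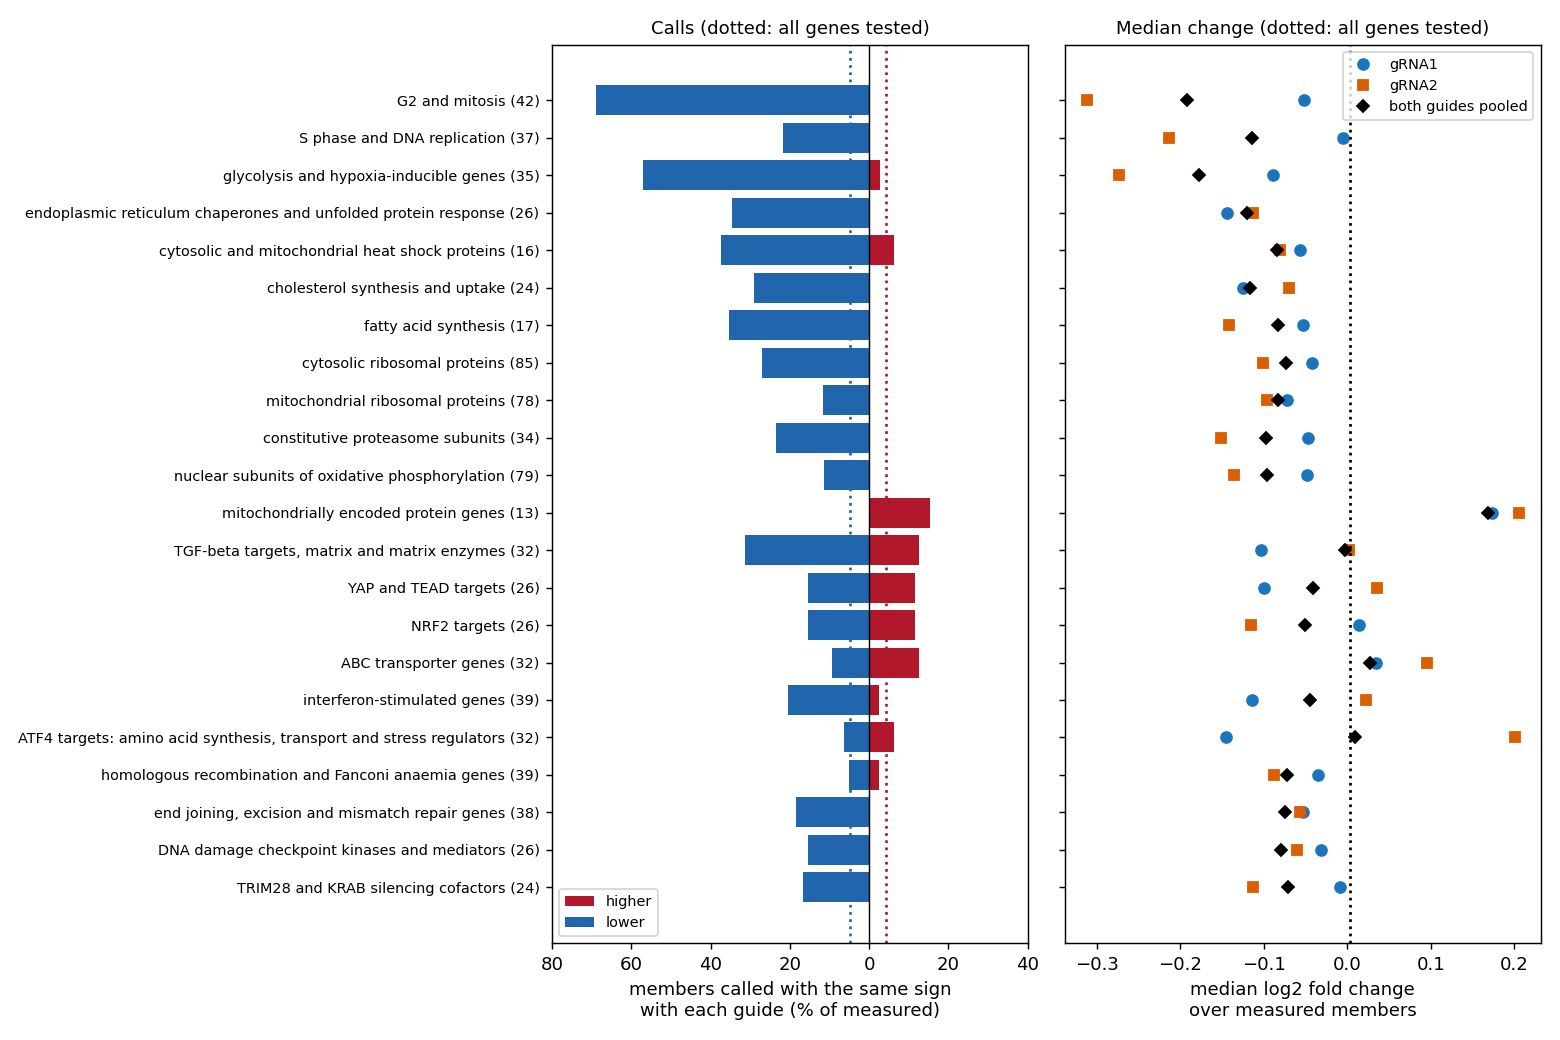
Left, the share of measured members of 22 gene lists (number measured in brackets) that rose or fell with both guides, with the shares of all genes tested as dotted lines. Right, the median log2 fold change of each list with gRNA1, gRNA2 and both pooled. Mitotic and glycolytic genes have the largest shares that fell, 29 of 42 and 20 of 35, with gRNA2 further from 0 than gRNA1, while the guides lie close together for the chaperones and the mitochondrial genes.

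Some genes of lipid synthesis fell with both guides. Of 24 genes of cholesterol synthesis and uptake 7 fell and 0 rose (29.2%), with a median of -0.12. Of 17 genes of fatty acid synthesis 6 fell and 0 rose (35.3%), with a median of -0.08. Over all genes 4.91% fell. SCD, the stearoyl-CoA desaturase, had 2032, 2080 and 2028 CPM in the controls, 1712, 1703 and 1654 CPM with gRNA1 and 1788, 1784 and 1806 CPM with gRNA2. The guide libraries lay well below the controls, and the pooled level was 0.85-fold the control (95% interval 0.82 to 0.882, adjusted p = 7.73e-06), with 0.826-fold with gRNA1 and 0.876-fold with gRNA2. HMGCS1, an early enzyme of cholesterol synthesis, fell to 0.879-fold (adjusted p = 0.00167), and INSIG1, which retains the sterol sensor in the endoplasmic reticulum, to 0.872-fold (adjusted p = 0.0022). The fatty acid desaturase FADS2 fell to 0.836-fold (adjusted p = 0.00796), the elongase ELOVL6 to 0.888-fold (adjusted p = 0.00796) and ACLY, which makes cytosolic acetyl-CoA, to 0.909-fold (adjusted p = 0.00796). The sterol count of 7 was 4 without control library 2, 2 with the transcript-length offset and 4 with the 6 guide libraries as 1 group. The fatty acid count of 6 was 2 without control library 2, 3 without control library 3 and 1 with the transcript-length offset. Without control 2 ELOVL6 and ACLY lost their calls (adjusted p = 0.0788 to 0.0956); without control 3 FADS2 and ELOVL6 did (0.0607 to 0.0764). The transcript-length offset ended the calls of HMGCS1, FADS2, ELOVL6 and ACLY, and the fit of 1 group that of ACLY.

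Matrix genes and targets of TGF-beta and YAP changed in both directions. Of 32 genes of the matrix list 4 rose and 10 fell, VCAN and PXDN among the latter (43.75% called, beside 9.17% of all genes). MMP13, collagenase 3, had 13.2, 13.5 and 12.5 CPM in the controls, 36.9, 35.5 and 38.8 CPM with gRNA1 and 15.4, 19.1 and 18.3 CPM with gRNA2. All guide libraries exceeded the controls, but gRNA1 raised it far more, and the pooled level was 1.95-fold the control (95% interval 1.76 to 2.16, adjusted p = 5.74e-08). LOXL2, a collagen crosslinker, had 261, 245 and 237 CPM in the controls, 207, 210 and 223 CPM with gRNA1 and 180, 169 and 168 CPM with gRNA2. All guide libraries were below the controls, and the pooled level was 0.773-fold the control (95% interval 0.732 to 0.815, adjusted p = 2.78e-06). FN1, fibronectin, was at 1.15-fold (adjusted p = 0.000394), with 1.01-fold with gRNA1 and 1.31-fold with gRNA2 (adjusted p = 0.86 and 9.57e-07), and its gRNA1 libraries overlapped the controls. Of 26 YAP targets 3 rose and 4 fell (26.9%, beside 9.17% of all genes). The guides leaned opposite ways on this list. By itself, gRNA1 gave 10 lower and 2 higher members (median -0.10) and gRNA2 gave 2 lower and 7 higher (0.04). CCN2, the connective tissue growth factor, had 11.2, 9.45 and 10.4 CPM in the controls, 14.5, 14.5 and 13.7 CPM with gRNA1 and 22.6, 22.4 and 20.8 CPM with gRNA2. It was above the controls in every guide library and highest with gRNA2, at 1.71-fold the control (95% interval 1.55 to 1.9, adjusted p = 8.87e-07). AMOTL1, an angiomotin that binds YAP, rose to 1.67-fold (adjusted p = 6.68e-05), TGFB2, the ligand, to 1.16-fold (adjusted p = 0.00337), and FSTL1, a follistatin-like secreted protein, fell to 0.84-fold (adjusted p = 0.000439).

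Of 14 mesenchymal genes 3 rose and 1, SNAI1, fell (28.6%, beside 9.17% of all genes). MYL9, a myosin light chain, had 12.4, 11.4 and 9.65 CPM in the controls, 15.2, 15.8 and 15.2 CPM with gRNA1 and 16.7, 14.2 and 16 CPM with gRNA2. The guide libraries were above all controls, and the pooled level was 1.39-fold the control (95% interval 1.24 to 1.57, adjusted p = 0.000811). SNAI2, the transcription factor Slug, rose to 1.51-fold (adjusted p = 0.00778). Among 24 integrin genes 3 rose and 2 fell (20.8% called, beside 9.17% of all genes). ITGB6, which activates latent TGF-beta, was at 1.42-fold (adjusted p = 0.00011) and ITGA6, a laminin receptor, at 0.887-fold (adjusted p = 0.00218). Without control library 2 or 3 the call of SNAI2 ended (adjusted p = 0.0773 and 0.0511). Of the matrix, YAP, mesenchymal and integrin genes named, the transcript-length offset ended the calls of AMOTL1, ITGB6, FSTL1, ITGA6, TGFB2 and SNAI2, and the fit of 1 group those of MMP13, CCN2, LOXL2, FN1 and TGFB2. The count of matrix falls of 10 was 6 without control library 1, 4 with the 6 guide libraries as 1 group and 5 with the transcript-length offset. The count of matrix rises of 4 was 2 without control library 3, 0 with the 6 guide libraries as 1 group and 2 with chromosome medians removed. The count of YAP falls of 4 was 1 without control library 2, 2 without control library 1, control library 3, gRNA1 library 2 or gRNA2 library 2, 0 with the transcript-length offset and 1 with the 6 guide libraries as 1 group. The count of YAP rises of 3 was 1 with the 6 guide libraries as 1 group and 1 with the transcript-length offset. The count of mesenchymal rises of 3 was 1 without control library 2 or control library 3 and 1 with the transcript-length offset. The count of mesenchymal falls of 1 was 0 without control library 1, control library 3, gRNA1 library 1, gRNA1 library 2 or gRNA2 library 2, 0 with the 6 guide libraries as 1 group and 0 with the transcript-length offset. The count of integrin rises of 3 was 0 with the transcript-length offset. The count of integrin falls of 2 was 1 without control library 1, control library 2, gRNA1 library 1, gRNA1 library 2 or gRNA2 library 2, 1 with the 6 guide libraries as 1 group, 1 in DESeq2, 1 without the robust option and 1 in a fit of protein-coding genes alone.

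Of 16 genes of EGFR family receptors, ligands and adaptors 1 rose and 1 fell (12.5%, beside 9.17% of all genes). EREG, the EGFR ligand epiregulin, had 19.6, 20.3 and 20.9 CPM in the controls, 27.6, 29.5 and 26.9 CPM with gRNA1 and 33.7, 38.7 and 38.9 CPM with gRNA2. Every guide library was above every control, and the pooled level was 1.59-fold the control (95% interval 1.46 to 1.73, adjusted p = 7.4e-07), with 1.38-fold with gRNA1 and 1.83-fold with gRNA2. The other was CBL, the ubiquitin ligase that directs EGFR to degradation, which fell. In tests of each guide by itself, gRNA1 gave 5 lower and 1 higher members of this family and gRNA2 gave 0 lower and 3 higher. Of 27 genes of ERK feedback and output 1 rose and 5 fell (22.2%), and 2 passed the pooled test with opposite signs. The guides moved this list in opposite directions. By itself against control, gRNA1 gave 9 lower and 0 higher members (median log2 change -0.09) and gRNA2 gave 0 lower and 6 higher (0.12). DUSP6, a phosphatase of ERK, rose to 1.35-fold (adjusted p = 0.012), and the 5 that fell were FOSB, FOS, ETV4, CCND1 and PLAUR. The count of ERK falls of 5 was 1 without control library 1, control library 2 or control library 3, 3 without gRNA1 library 1, gRNA1 library 2 or gRNA2 library 2, 0 with the transcript-length offset, 2 with the 6 guide libraries as 1 group and 3 in a fit of protein-coding genes alone. The count of EGFR family rises of 1 was 2 without gRNA2 library 2 or gRNA2 library 3, 2 in a fit of protein-coding genes alone, 3 with GC and length correction, 3 with no filter on low counts and 3 with the replicate block. The count of EGFR family falls of 1 was 0 without control library 2 or control library 3, 0 with the 6 guide libraries as 1 group, 0 with the transcript-length offset, 2 with GC and length correction and 2 with chromosome medians removed.

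Transporters of the ABC family that rose were 4 of 32, and 3 fell (21.9% called, beside 9.17% of all genes). ABCC2, the multidrug resistance protein that exports conjugates, had 13.6, 15.1 and 15.8 CPM in the controls, 36.2, 36.2 and 35.5 CPM with gRNA1 and 23.5, 26.3 and 25.3 CPM with gRNA2. The gRNA1 libraries were highest, the gRNA2 libraries between them and the controls, and the pooled level was 2.02-fold the control (95% interval 1.85 to 2.21, adjusted p = 3.81e-09). ABCC9, a subunit of potassium channels, rose to 1.24-fold (adjusted p = 0.000194) and ABCC3, another exporter of conjugates, to 1.21-fold (adjusted p = 0.0025); the fourth was ABCA12. ABCC2 and ABCC3 also belong to the 26 NRF2 targets, of which 3 rose and 4 fell (26.9% called, beside 9.17% of all genes). FTL, the ferritin light chain, fell to 0.844-fold (adjusted p = 0.000419) and TXNRD1, thioredoxin reductase, to 0.916-fold (adjusted p = 0.00599). The ABC genes that fell were ABCA1, ABCA2 and ABCC5. The count of ABC falls of 3 was 0 without control library 2, 1 without control library 1, control library 3 or gRNA2 library 2, 0 with the 6 guide libraries as 1 group, 0 with chromosome medians removed and 1 with the transcript-length offset. The count of NRF2 falls of 4 was 2 without control library 2, 1 with the 6 guide libraries as 1 group, 1 with the transcript-length offset and 2 with chromosome medians removed.

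Of 39 interferon-stimulated genes 8 fell and 1, TRIM22, rose (23.1%, beside 9.17% of all genes), with a median of -0.05. With gRNA1 tested by itself 11 were lower and 1 higher, and with gRNA2 4 were lower and 3 higher. The medians were -0.11 and 0.02, and the guides differed in 14 of the 39. RIGI, a sensor of viral RNA, had 73.1, 74.4 and 76.9 CPM in the controls, 59, 65.5 and 60.1 CPM with gRNA1 and 59.8, 65.4 and 68.8 CPM with gRNA2. All guide libraries were below the controls, and the pooled level was 0.842-fold the control (95% interval 0.788 to 0.901, adjusted p = 0.0019). IFIT3, IFIT1 and DDX60, antiviral effectors, fell to 0.868-fold (adjusted p = 0.00313), 0.848-fold (adjusted p = 0.0065) and 0.857-fold (adjusted p = 0.00579). SOD2, the mitochondrial superoxide dismutase induced by NF-kB, rose to 1.13-fold (adjusted p = 0.00197). Of 30 genes of the BCL2 family, caspases and their inhibitors 2 rose and 1 fell (10%, beside 9.17% of all genes). CFLAR, which encodes the caspase-8 inhibitor FLIP, had 163, 168 and 166 CPM in the controls, 212, 215 and 215 CPM with gRNA1 and 221, 219 and 221 CPM with gRNA2. Both guides gave levels above all controls, and the pooled level was 1.31-fold the control (95% interval 1.25 to 1.37, adjusted p = 1.16e-07). The others were CASP10, which rose, and FADD, which fell. The count of apoptosis rises of 2 was 1 without control library 1, control library 2, control library 3, gRNA1 library 1, gRNA1 library 2, gRNA1 library 3, gRNA2 library 2 or gRNA2 library 3, 1 with the 6 guide libraries as 1 group, 1 in DESeq2, 1 with chromosome medians removed, 1 with no filter on low counts, 1 with the replicate block, 1 with the transcript-length offset and 5 with GC and length correction. The count of apoptosis falls of 1 was 0 without control library 1, control library 2, control library 3, gRNA1 library 1, gRNA1 library 2, gRNA1 library 3, gRNA2 library 2 or gRNA2 library 3, 2 without gRNA2 library 1, 0 with the 6 guide libraries as 1 group, 0 in DESeq2, 0 with GC and length correction, 0 with chromosome medians removed and 0 in a fit of protein-coding genes alone. The interferon count of 8 was 5 without control library 2 or control library 3, 4 with the transcript-length offset and 5 with the 6 guide libraries as 1 group. Among the genes named in the EGFR, ERK, transporter, NRF2 and interferon groups, leaving out control library 2 ended the calls of DDX60, TXNRD1 and DUSP6 (adjusted p = 0.0534 to 0.086), and leaving out control library 3 those of IFIT1 and DUSP6 (0.0724 and 0.0778). The transcript-length offset ended those of SOD2, DDX60, TXNRD1 and DUSP6, and the fit of 1 group that of TXNRD1.

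Genes of DNA repair, which the series title raises, gave calls of modest size. Of 39 genes of homologous recombination and the Fanconi pathway 1 rose and 2 fell, a share of 7.69% beside 9.17% of all genes. BARD1, the partner of BRCA1, rose to 1.2-fold (adjusted p = 0.0144), and RAD54B, a DNA translocase, and FANCG, of the Fanconi core complex, fell to 0.819-fold (adjusted p = 0.0158) and 0.85-fold (adjusted p = 0.0297). Of RAD54B's words 57.6% are shared with other genes. Of the checkpoint genes given below 15.4% fell. Over all genes 4.91% fell, and among protein-coding genes 9.86% at a log2 CPM of 5 to 7 and 20.1% above 7. Of 38 genes of end joining, excision and mismatch repair 7 fell and 0 rose (18.4%). DDB1, a subunit of the complex that recognises ultraviolet damage, had 252, 248 and 247 CPM in the controls, 223, 221 and 223 CPM with gRNA1 and 225, 212 and 213 CPM with gRNA2. All guide libraries were below all controls, and the pooled level was 0.882-fold the control (95% interval 0.844 to 0.923, adjusted p = 0.000884). XRCC4, the partner of DNA ligase IV, fell to 0.848-fold (adjusted p = 0.0177), and the polymerases POLL and POLQ to 0.879-fold (adjusted p = 0.0195) and 0.897-fold (adjusted p = 0.0262). Of 26 checkpoint kinases and mediators 4 fell: USP28, a deubiquitinase, to 0.886-fold (adjusted p = 0.0106), the histone variant H2AX to 0.786-fold (adjusted p = 0.0214), the kinase WEE1 to 0.902-fold (adjusted p = 0.0244), and the phosphatase CDC25A to 0.839-fold (adjusted p = 0.0388). Guide libraries overlapped the controls in POLQ, H2AX and WEE1, and WEE1 was at 0.82-fold with gRNA1 and 0.992-fold with gRNA2. The end joining and excision count of 7 was 1 without control library 1, control library 2 or control library 3, 2 without gRNA2 library 2, 3 without gRNA1 library 2, 0 with the transcript-length offset, 2 with the 6 guide libraries as 1 group and 3 in a fit of protein-coding genes alone. The checkpoint count of 4 was 1 without control library 2, 2 without control library 1, control library 3, gRNA1 library 1, gRNA1 library 2 or gRNA2 library 2, 1 with the 6 guide libraries as 1 group, 1 with chromosome medians removed, 1 with the transcript-length offset and 2 in a fit of protein-coding genes alone. The recombination count of falls of 2 was 0 without control library 3, 1 without control library 1, control library 2, gRNA1 library 2 or gRNA2 library 3, 0 with the 6 guide libraries as 1 group, 0 with the transcript-length offset, 1 in DESeq2, 1 with chromosome medians removed and 5 with GC and length correction.

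Of 24 genes of TRIM28 and KRAB silencing cofactors 4 fell and 0 rose (16.7%). Besides TRIM28 these were MTA2 and CHD4, subunits of the NuRD deacetylase complex, and SUV39H1, a histone H3 lysine methyltransferase. Among protein-coding genes 9.86% fell at a log2 CPM of 5 to 7 and 20.1% above 7. By itself, gRNA1 gave 1 lower and 1 higher cofactor genes and gRNA2 gave 8 lower and 0 higher. The cofactor count of 4 was 2 with the 6 guide libraries as 1 group and 2 with the transcript-length offset. MTA2 had 88.2, 81.3 and 80.7 CPM in the controls, 71.6, 71.9 and 76.4 CPM with gRNA1 and 72.4, 68.9 and 68 CPM with gRNA2. The guide libraries were all below the controls, and the pooled level was 0.859-fold the control (95% interval 0.809 to 0.911, adjusted p = 0.00178). SUV39H1 fell to 0.787-fold (adjusted p = 0.00602) and CHD4 to 0.907-fold (adjusted p = 0.00621), with 55.6% of CHD4's words shared with other genes. Of the repair, checkpoint and cofactor genes named, DDB1, MTA2 and TRIM28 kept their calls with every single library left out and the other 12 did not. Without control library 1 the calls of BARD1, XRCC4, POLL, H2AX, POLQ, FANCG and CDC25A ended (adjusted p = 0.0614 to 0.114). Without control library 2 those of CHD4, USP28, XRCC4, POLL, WEE1, POLQ, FANCG and CDC25A ended (0.0507 to 0.216), and without control library 3 those of SUV39H1, BARD1, RAD54B, XRCC4, POLL, WEE1, POLQ, FANCG and CDC25A (0.0502 to 0.187). Without gRNA1 library 1 those of H2AX and CDC25A ended (0.0559 and 0.0732), without gRNA1 library 2 those of WEE1, POLQ, FANCG and CDC25A (0.051 to 0.083), without gRNA2 library 2 those of BARD1, POLL, WEE1, POLQ and CDC25A (0.0506 to 0.0989), and without gRNA2 library 3 that of FANCG (0.0524).

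Other settings moved the same genes. The transcript-length offset ended the calls of DDB1, CHD4, USP28, BARD1, RAD54B, XRCC4, POLL, WEE1, POLQ, FANCG and CDC25A, and the fit of 1 group those of CHD4, RAD54B, POLL, H2AX, WEE1, POLQ, FANCG and CDC25A. DDB1, USP28, H2AX, WEE1 and MTA2 lie on chromosome 11, whose genes were lower in the guide libraries as a whole, and with each chromosome's median change removed the calls of USP28, WEE1, POLQ, FANCG and CDC25A ended. FANCG and CDC25A were not called by DESeq2, and FANCG also lost its call with GC and length correction. CDC25A lost its own with no filter on low counts and with the replicate block, and WEE1, POLQ and CDC25A with protein-coding genes alone.

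Long noncoding RNAs with known names included 7 that rose and 4 that fell of 27 (40.7% called, beside 9.17% of all genes). Over all long noncoding RNAs tested 5.28% rose, and 48.4% and 43.3% did at a log2 CPM of 5 to 7 and above 7. The shares that fell were 0.204%, 4.21% and 10% in the same order. NEAT1, the scaffold of paraspeckles, had 19195, 19841 and 19607 CPM in the controls, 21413, 21375 and 20526 CPM with gRNA1 and 23469, 23780 and 24079 CPM with gRNA2. All guide libraries exceeded the controls, and the pooled level was 1.15-fold the control (95% interval 1.11 to 1.19, adjusted p = 4.51e-05). CYTOR had 56.2, 55.7 and 56.4 CPM in the controls, 62.2, 65.8 and 65.6 CPM with gRNA1 and 70.7, 71.3 and 71.5 CPM with gRNA2. It was above the controls with both guides, at 1.21-fold the control (95% interval 1.14 to 1.28, adjusted p = 0.000124). FTX, a regulator of XIST, rose to 1.22-fold (adjusted p = 0.000231), with 45.5% of its words shared with other genes. GAS5 and SNHG12, hosts of small nucleolar RNAs, fell to 0.896-fold (adjusted p = 0.00614) and 0.9-fold (adjusted p = 0.0364), as did SNHG29, which is outside that list, to 0.911-fold (adjusted p = 0.00429). The count of rises of 7 was 4 with the transcript-length offset. The count of falls of 4 was 0 without control library 3, 1 without control library 1, 2 without control library 2, gRNA1 library 1 or gRNA2 library 2, 0 with the 6 guide libraries as 1 group, 0 with the transcript-length offset and 2 with chromosome medians removed. The strand setting of the quantification is not given in the sources used here, so reads of overlapping genes on opposite strands may not be separated. GAS5 lost its call without control library 3 (adjusted p = 0.0743). SNHG12 lost its call without any of the 3 control libraries (0.058, 0.176 and 0.167), any of the 3 gRNA1 libraries (0.0526, 0.0842 and 0.0529) or gRNA2 library 2 (0.102), and in DESeq2. The transcript-length offset ended the calls of CYTOR, SNHG29, GAS5 and SNHG12, and the fit of 1 group those of GAS5 and SNHG12.

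Among 23 genes of lung adenocarcinoma and epithelial identity 2 rose and 3 fell (21.7% called, beside 9.17% of all genes). ELF3, an epithelial transcription factor, was at 1.22-fold (adjusted p = 0.00106), with 1.35-fold with gRNA1 and 1.11-fold with gRNA2, and NAPSA, the alveolar protease napsin A, at 1.43-fold (adjusted p = 0.0167). KRT19, a keratin of simple epithelia, fell to 0.875-fold (adjusted p = 0.00325). CDH5, the cadherin of endothelium, had 1.28, 0.692 and 0.598 CPM in the controls, 2.91, 2.31 and 2.86 CPM with gRNA1 and 1.94, 2.14 and 1.92 CPM with gRNA2. It rose to 2.76-fold the control (95% interval 2.02 to 3.77, adjusted p = 0.00022), while the other endothelial markers, PECAM1 and VWF, overlapped between the groups and the list of 3 summed to 0.464 to 0.667 TPM in the controls and 0.659 to 1.03 TPM in the guide libraries. Without control library 2 or 3 the call of NAPSA ended (adjusted p = 0.0957 and 0.0558), as it did in DESeq2. The count of epithelial rises of 2 was 1 without control library 2 or control library 3, 1 with the 6 guide libraries as 1 group and 1 in DESeq2. The count of epithelial falls of 3 was 1 without control library 1, control library 2 or gRNA2 library 2, 5 without gRNA2 library 1, 0 with the 6 guide libraries as 1 group, 5 in DESeq2, 5 with GC and length correction, 5 with chromosome medians removed and 5 with no filter on low counts. The fit of 1 group ended the calls of ELF3 and KRT19.

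The remaining lists were short, with 7 to 20 genes measured. Over all genes 9.17% were called. The share called was 40% for the reelin pathway, 15% for tRNA synthetases and 13.3% for MHC class I. It was 20% for NF-kB genes, 25% for osmolyte genes and 28.6% for basal, squamous or neuroendocrine genes. Blood and stromal markers gave 11.1% and glucose-sensing genes 0%. Of 10 genes of the reelin pathway RELN rose and 3 fell by small amounts, its receptors LRP8 and VLDLR and the exchange factor RAPGEF1 downstream of them, and guide libraries overlapped the controls in VLDLR and RAPGEF1. The count of reelin pathway falls of 3 was 0 without control library 1, gRNA1 library 2 or gRNA2 library 2, 1 without control library 2, control library 3 or gRNA2 library 3, 0 with the 6 guide libraries as 1 group, 0 with the transcript-length offset, 1 with chromosome medians removed and 1 in a fit of protein-coding genes alone. Of 20 tRNA synthetases 3 fell, QARS1, FARSA and RARS1, which charge tRNAs with glutamine, phenylalanine and arginine, and 0 rose. The tRNA synthetase count of 3 was 0 without control library 1, 1 without control library 3, 1 with the 6 guide libraries as 1 group, 1 with the transcript-length offset and 5 with chromosome medians removed. Of 15 genes of MHC class I and antigen loading 2 fell, the chaperones CALR and PDIA3 given above, and 0 rose. Of 15 inflammatory genes of NF-kB SOD2 rose, and TNFAIP3 and NFKBIA, which restrain the pathway, fell, with guide libraries overlapping the controls in TNFAIP3. The NF-kB count of falls of 2 was 0 without control library 2 or control library 3, 1 without gRNA2 library 2, 0 with the 6 guide libraries as 1 group and 0 with the transcript-length offset. Of 8 osmolyte genes the factor NFAT5 rose and the aldose reductase AKR1B1 fell, both with overlapping libraries. The osmolyte count of rises of 1 was 0 without control library 1, control library 3, gRNA1 library 1, gRNA1 library 2 or gRNA2 library 2, 0 with the 6 guide libraries as 1 group, 0 with chromosome medians removed and 0 with the transcript-length offset. The osmolyte count of falls of 1 was 2 without control library 1, 0 with the 6 guide libraries as 1 group and 0 with the transcript-length offset. The 7 measured genes of basal, squamous or neuroendocrine cells held 2 that rose, SOX2 and ABCA12, and the 9 blood and stromal markers held 1, CDH5. Of 7 glucose-sensing genes TXNIP itself passed the pooled test with opposite signs.

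The genes that fell lay unevenly on the chromosomes, a pattern chosen after its values were seen. Over 10759 genes at an average log2 CPM of at least 3, 8.6% fell and 5.18% rose. On chromosome 11, 133 of 609 genes fell (21.8%) and 13 rose, and the median log2 change was -0.09, with -0.12 for gRNA1 and -0.07 for gRNA2, beside -0.03 over all these genes. The median was negative with each guide in 7 of the 7 windows of 20 Mb along it. In each guide library the chromosome's median lay below that of the controls, between -0.12 and -0.05 against -0.01 and 0.02. Chromosomes 9, 3 and 10 had 71 of 452, 94 of 628 and 66 of 429 genes that fell, with 17, 24 and 10 that rose. These 4 chromosomes held 39.4% of the genes that fell, 11.5% of those that rose and 19.7% of all. Chromosome 16 went the other way, with 34 genes that rose and 6 that fell of 493, and chromosome 14 had 34 and 13 of 381. At 140 to 160 Mb of chromosome 1, 22 genes rose and 1 fell of 166. Falls were also dense at 0 to 20 Mb of chromosome 12, with 30 of 91 genes (33%) and 6 rises. That share was above the highest of any chromosome 11 window, 29.2%. LDHA, RRM1, HYOU1, DDB1 and MTA2 are on chromosome 11. With each chromosome's median removed in each library, 798 genes rose and 926 fell.

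**Figure D5:**
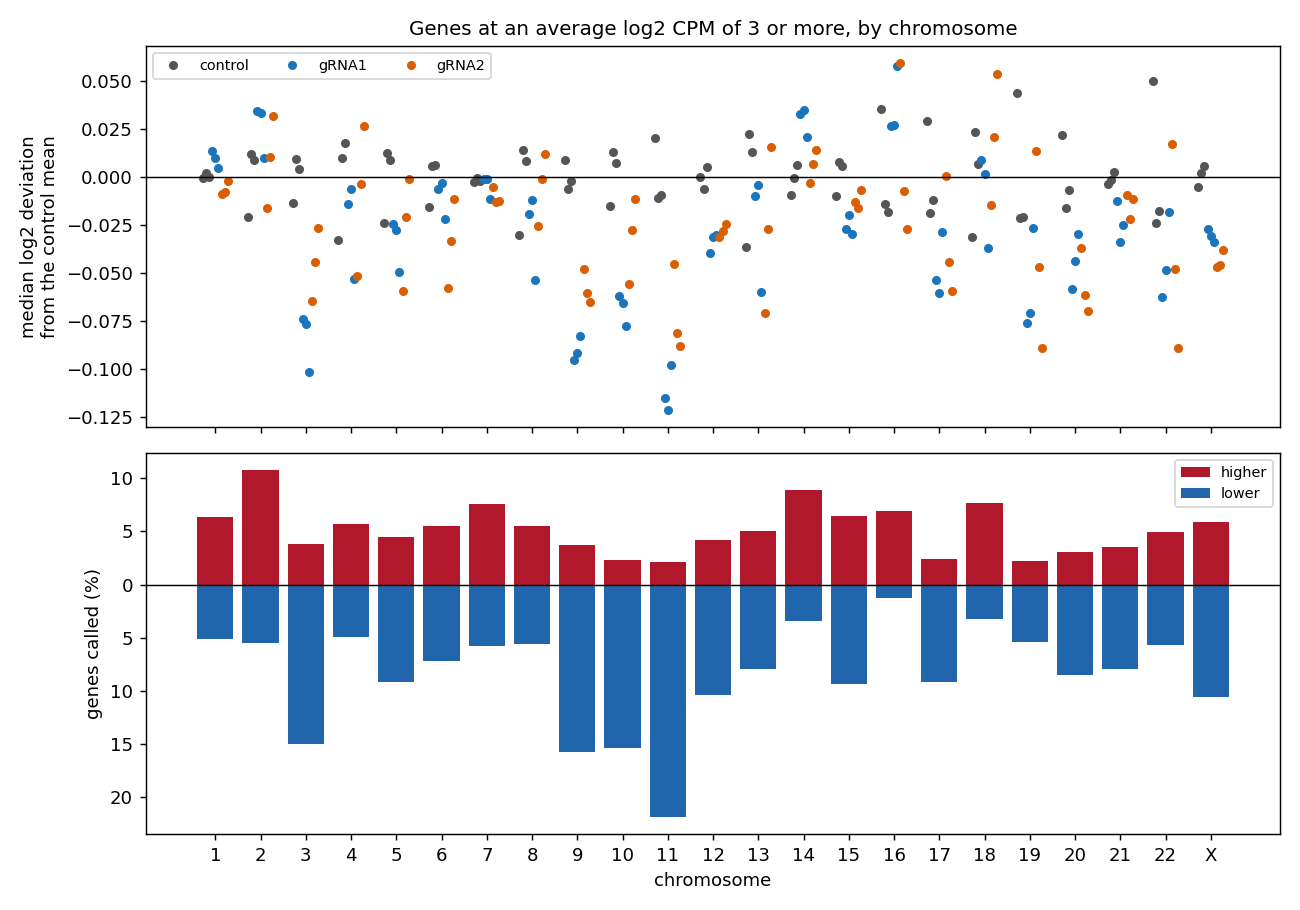
Top, the median log2 deviation from the control mean over the genes of each chromosome, 1 point per library. Bottom, the percentage of those genes that rose or fell with both guides. Chromosome 11 has the lowest medians in the guide libraries, down to -0.12, and the largest share of genes that fell, 21.8%.

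A pooled mean can hide guides that differ. Of all genes tested 1350 differed between gRNA2 and gRNA1 (6.87%). Of the 1803 that rose or fell with both, 335 differed in size, 152 being further from the control with gRNA1 and 183 with gRNA2. Another 48 genes passed the pooled test with opposite signs, and all 48 differed between the guides. EGR1, an immediate early transcription factor, had 62.8, 60.9 and 57.7 CPM in the controls, 54.5, 56.1 and 56.7 CPM with gRNA1 and 109, 97.1 and 103 CPM with gRNA2. All gRNA1 libraries were below the controls and all gRNA2 libraries above them, 0.923-fold with gRNA1 and 1.7-fold with gRNA2 (adjusted p = 0.184 and 1.34e-08), and its pooled level of 1.25-fold describes neither guide. H1-5, a linker histone, had 23.4, 21.8 and 26.1 CPM in the controls, 25.1, 25 and 25.3 CPM with gRNA1 and 11.8, 12.2 and 11.4 CPM with gRNA2. The gRNA1 libraries overlapped the controls and the gRNA2 libraries lay below them, 1.06-fold with gRNA1 and 0.497-fold with gRNA2. TXNIP, an inhibitor of thioredoxin and glucose uptake, had 237, 249 and 247 CPM in the controls, 212, 215 and 204 CPM with gRNA1 and 372, 378 and 370 CPM with gRNA2. It was below the controls with gRNA1 and above them with gRNA2, 0.859-fold with gRNA1 and 1.53-fold with gRNA2 (adjusted p = 0.000616 and 3.78e-09).

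STS, the steroid sulfatase, had 54.2, 54.5 and 52.5 CPM in the controls, 81.3, 85.3 and 79.5 CPM with gRNA1 and 52.6, 50.6 and 49.1 CPM with gRNA2. The gRNA1 libraries were above the controls and the gRNA2 libraries overlapped them, 1.53-fold with gRNA1 and 0.946-fold with gRNA2. ZNF114, a zinc finger gene, was at 1.01-fold with gRNA1 and 0.712-fold with gRNA2. The stress factor ATF4 has targets among these genes. Of 32 targets 2 rose and 2 fell (12.5%, beside 9.17% of all genes). Another 4 passed with opposite signs, beside 48 of all 19658 genes tested. The median log2 change over the list was -0.15 with gRNA1 and 0.20 with gRNA2. Tested against control by itself, gRNA1 gave 9 lower and 0 higher members and gRNA2 gave 1 lower and 17 higher. The ATF4 target count of rises of 2 was 1 without control library 1, control library 2, control library 3, gRNA1 library 1, gRNA1 library 2, gRNA2 library 2 or gRNA2 library 3, 0 with the 6 guide libraries as 1 group, 1 with chromosome medians removed, 1 with the replicate block and 1 with the transcript-length offset. The ATF4 target count of falls of 2 was 0 without control library 1, control library 3, gRNA1 library 2, gRNA2 library 2 or gRNA2 library 3, 1 without control library 2, gRNA1 library 1 or gRNA1 library 3, 0 with the 6 guide libraries as 1 group, 0 in a fit of protein-coding genes alone, 0 with the transcript-length offset, 1 in DESeq2 and 1 with chromosome medians removed. DDIT3, the stress factor CHOP, was at 0.919-fold with gRNA1 and 1.8-fold with gRNA2, DDIT4, an inhibitor of mTORC1, at 0.946-fold with gRNA1 and 1.59-fold with gRNA2 and CHAC1, which degrades glutathione, at 0.902-fold with gRNA1 and 2.29-fold with gRNA2. GDF15, a secreted stress hormone, rose with the same sign, 1.18-fold with gRNA1 and 1.77-fold with gRNA2, and the histone H2BC8 fell, 0.966-fold with gRNA1 and 0.656-fold with gRNA2. With the 6 guide libraries as 1 group none of these 10 genes kept its call (adjusted p = 0.196 to 0.665). CHAC1 also lost its pooled call without control library 1 or 2 (adjusted p = 0.115 and 0.0539), with the transcript-length offset and in DESeq2.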

How the data were processed

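Total RNA depleted of ribosomal RNA was sequenced in 9 libraries of H1975. Transcripts were quantified by the authors with Salmon 1.4.0 on hg38, per the submitters' processing notes, and the deposited tables give an estimated count and a TPM value per transcript, per the file headers. The strand setting is not given in the sources used here. Estimated counts were summed to 56823 genes with GENCODE 29 names and rounded; 1.26% to 1.33% of reads had no match. The 16918432 to 26466536 reads a library limit the precision for low genes. After a filter on low counts 19658 genes were fitted with edgeR 4.0.16 (R 4.3.3; TMM scaling, quasi-likelihood test, robust), as 3 groups, with the mean of the 2 guide effects tested against control and Benjamini-Hochberg adjustment; every adjusted p printed is from this test unless another is named. TPM served for cell markers alone. The fits were first tested on simulated data. Named genes were the target, TRIM28 and EGFR, the 12 highest and 12 lowest by the weaker guide with a mean log2 CPM of 1 or more and all guide libraries beyond the controls, up to 4 members of each list, up to 3 long noncoding RNAs in each direction, and up to 4 genes with opposite guides; CBL, CASP10, FADD and other members listed without values were named after their values were seen, and some genes the rules took are not reported here. The comparison, the lists and the rules were chosen with earlier results of these data known. DESeq2 1.42.0, RLE scaling and other settings were alternatives. Figures were drawn with matplotlib 3.10.9 in Python 3.11.15.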

Additional observations from a re-analysis of the deposited data

Results flagged for a closer look

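The genes named in the results were marked for a closer look where the level with gRNA2 differed from that with gRNA1 in edgeR's quasi-likelihood test (adjusted p under 0.05 over all genes), which 48 of them did. The values are the level with gRNA2 as a fold of that with gRNA1. In 8 genes the fitted changes had opposite signs with the 2 guides: 1.78 for TXNIP, 1.85 for EGR1, 0.62 for STS, 0.47 for H1-5, 1.96 for DDIT3, 0.702 for ZNF114, 1.68 for DDIT4 and 2.53 for CHAC1. Among genes that rose, those further from the control with gRNA1 were at 0.474 for MMP13, 0.698 for ABCC2, 0.567 for TSPAN12, 0.821 for ELF3, 0.555 for SOX2, 0.609 for MAOA, 0.526 for ABCA12, 0.738 for RELN, 0.709 for HAGLR and 0.762 for AMOTL1. Those that rose further with gRNA2 were at 1.3 for FN1, 1.54 for CCN2, 1.51 for GDF15, 1.32 for EREG, 1.13 for NEAT1 and 1.23 for TGFB2. Among genes that fell, those further from the control with gRNA1 were at 1.21 for WEE1, 1.27 for VCAN and 1.11 for HSPA5. Those that fell further with gRNA2 were at 0.731 for LDHA, 0.758 for MKI67, 0.736 for CCNB1, 0.762 for ANLN, 0.756 for NDRG1, 0.679 for H2BC8, 0.808 for LOXL2, 0.815 for H1-4, 0.854 for TPI1, 0.841 for HSPH1, 0.822 for UHRF1, 0.889 for TXNRD1, 0.879 for HSPA8, 0.858 for FOXM1, 0.873 for KRT19, 0.871 for RRM2, 0.905 for CHD4, 0.913 for LDHB, 0.881 for POLQ, 0.924 for RPSA and 0.887 for TRIM28. The groups hold 3 libraries each, too few for a rule on single outlying libraries.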

How the results depend on the processing

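The 1851 genes past the pooled test became 533 with the transcript-length offset, 693 with the 6 guide libraries as 1 group, 3098 with GC and length correction and 199 at 1.5-fold or more, and 851 to 2443 with 1 library left out. The 838 that rose became 281, 421, 1703 and 184 in the same order, and 466 to 1073. The 965 that fell became 240 with the length offset, 272 as 1 group, 591 with protein-coding genes alone and 15 at 1.5-fold, and 367 to 1310 with 1 library left out. The cause was not tested. With the replicate block 1883 genes passed, 835 rose and 998 fell; replicate numbers did not pair the libraries, since correlations between same-numbered libraries ran from -0.161 to 0.207. On the log2 scale, the genes with opposite guides reversed with gRNA1 alone, at 0.081 for H1-5, -0.12 for EGR1, 0.020 for ZNF114, -0.22 for TXNIP, -0.12 for DDIT3, -0.080 for DDIT4 and -0.15 for CHAC1, and with gRNA2 alone STS was at -0.080. Of 123 called genes that the naming rules took, 35 lost their calls in none of the 19 alternatives that gave them an adjusted p (DESeq2 gave CDH5 and HSPA6 none); the length offset ended 59, the fit of 1 group 43, and leaving out any 1 library 35. The target had 36 to 62 reads a library.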
